A study of Homo sapiens with 12 samples.

Results

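The genes described here are 39 that carry out or time the copying of DNA in S phase of the cell cycle, out of 19775 genes measured on the same arrays. They were taken by their symbol in the platform annotation, and the probe set (a group of short probes read as 1 value) of highest mean signal over the 12 arrays stood for each gene. All 39 were measured, and every mean lay above the median signal of all probe sets. The cells were MCF-10A, an established non-tumorigenic line of human mammary epithelium, grown under their usual conditions and collected 48 h after infection with a retrovirus. There were 4 groups with 3 arrays each. The NICD group received the free intracellular domain of Notch1, which needs no ligand and no cleavage to act, and the sample descriptions add "gfp" to its name without saying what that stands for. The Notch1 L1601P+ΔP group received a receptor with a substitution in the domain that holds its subunits together and without the C-terminal PEST region that shortens the life of the intracellular domain. The full-length Notch1 group received the wild-type receptor, and the vector group received the retrovirus with no Notch1. All 4 groups are infected cells of 1 line, with expression forced in the 3 Notch1 groups, and whether the infected cells were selected, or which cells took up the virus, is not stated in the labels. The replicates are labelled biological with no word on separate cultures or infections, and p-values therefore measure how far these samples spread, which may be technical.

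DNA is copied once per cell cycle from origins. In G1 the origin recognition complex, CDC6 and CDT1 load the ring-shaped MCM helicase, and the kinases CDC7 and CDK2, the partner of cyclin E, then switch it on together with CDC45 and the GINS complex. Polymerases, the sliding clamp PCNA and its loader RFC follow the helicase, while ribonucleotide reductase and thymidylate synthase supply the building blocks and other factors pack the new DNA into chromatin. Most of these genes are known targets of E2F transcription factors, which the retinoblastoma protein holds back until the cyclin-dependent kinases release them.

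All values are log2 signals, so a difference of 1 is a doubling of the signal. The level of one gene is not set against that of another, since each probe set has its own scale. Array medians lay between 5.64 and 5.697. The construct was seen on 1 of the NOTCH1 probe sets, which averaged 8.79 ± 0.04 with NICD, 8.74 ± 0.02 with Notch1 L1601P+ΔP, 9.16 ± 0.04 with full-length Notch1 and 6.54 ± 0.20 with vector (SD, n = 3 each). The other NOTCH1 probe set, of higher mean signal, differed little between groups. It averaged 9.72 ± 0.10 with NICD, 9.50 ± 0.05 with Notch1 L1601P+ΔP, 9.52 ± 0.03 with full-length Notch1 and 9.44 ± 0.06 with vector. The 8 mammary epithelial markers measured had means over the 12 arrays of 10.27 to 13.67, and with NICD against vector 2 of the 8 rose and 5 fell, with differences of -1.97 to 0.58 over the 8. The 9 markers of blood, endothelium and fibroblasts had means of 3.51 to 7.75, and none of these 9 passed the test in any of the 6 comparisons. The difference between the 3' and the 5' control probe sets, a measure of RNA quality, was -0.04 ± 0.02 with NICD against -0.01 ± 0.01 with vector for GAPDH, and 0.39 ± 0.05 with NICD against 0.30 ± 0.05 with vector for ACTB. The part of these markers and controls in the results below was not tested.

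With NICD a part of the replication genes had slightly lower signals than with vector, and 1 gene rose. Of the 39 genes, 14 fell and CCNE1, which encodes cyclin E1, rose against vector, by limma at an adjusted p (Benjamini-Hochberg, taken over the whole table) below 0.05. Together these 15 calls compare with 27.6% of all genes called in either direction. The 14 are 35.9% of the replication genes, where 18.1% of all genes tested were lower with NICD. The single rise stands against a background of 9.54% higher. The falls of 13 of the 14 lay between -0.40 and -0.19, which leaves between 75.6% and 87.7% of the vector signal. Over all 39 genes the median difference was -0.13, against -0.02 over all genes, and 32 of the 39 differences were negative. Without NICD replicate 3 the median was -0.07, and 31 differences were negative. The 3 NICD arrays lay wholly below the 3 vector arrays for 17 of the 39 genes, against 24.6% of all genes, and wholly above for 2, against 14.5%. In RNA from whole cultures, fewer cells in S phase and less of a transcript in each cell cannot be told apart. The median deviation of the 39 genes from their mean over the 12 arrays lay between -0.14 and -0.01 on the NICD arrays, between -0.08 and -0.02 on the Notch1 L1601P+ΔP arrays, between 0.04 and 0.09 on the full-length Notch1 arrays and between 0.04 and 0.06 on the vector arrays. The heat map of all genes and arrays shows the same spread within the NICD group.

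**Figure D1:**
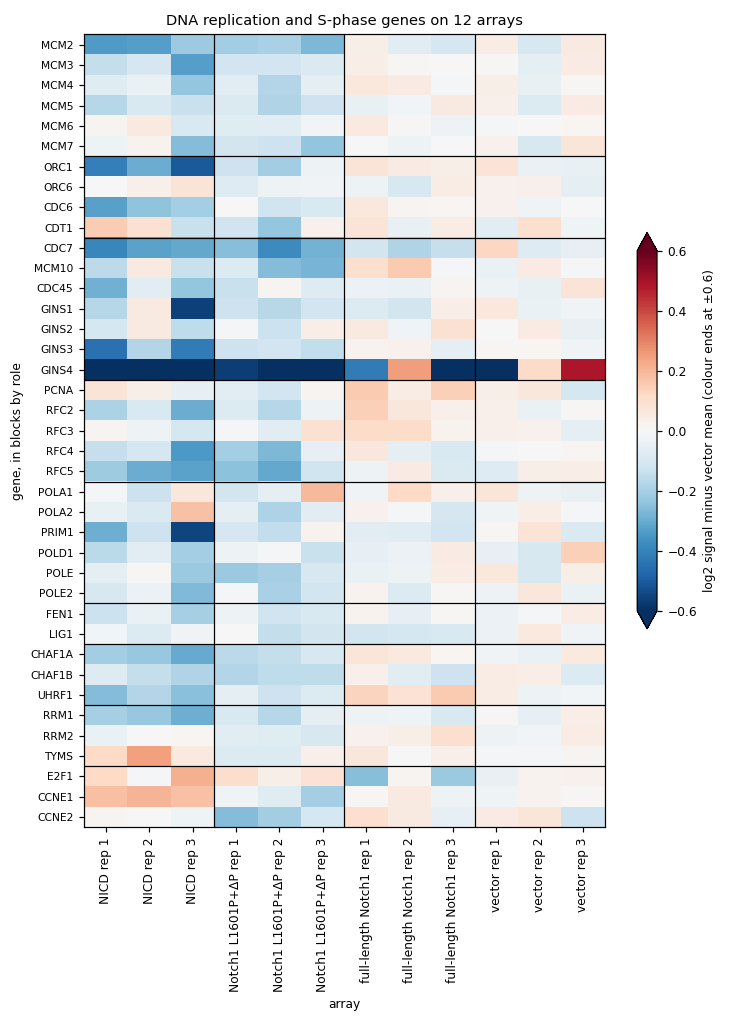
Heat map of the 39 replication genes (rows, grouped by role) on the 12 arrays (columns, NICD first and vector last), each cell the log2 signal minus the gene's mean over the 3 vector arrays, on a colour scale that ends at -0.6 and 0.6. The NICD and Notch1 L1601P+ΔP columns are mostly below 0, and the CCNE1 row is above 0 with NICD. The full-length Notch1 columns are mostly near 0, with GINS4 and E2F1 the furthest from it.

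How far the 14 falls stand out depends on the genes they are set against and on the scaling. In all, 12563 genes have a mean above the median signal of all probe sets, as all 39 do. That cut, 5.67, lies below the median of all genes, 6.66, and GINS4, at 6.36, lies between the 2. Among the 12563 genes 30.6% were lower and 14.0% higher with NICD. The replication genes then had 16 falls (41.0%) and 2 rises (5.13%). After cyclic loess, a scaling that bends each array to the others across the range of signal, 7 replication genes were lower (17.9%, against 12.7% of all genes) and 2 were higher (5.13%, against 13.5%). Their median was then -0.04, against 0.01 over all genes, and 23 of 39 differences were negative. The 7 that remained lower were ORC1, CDC6, CDC7, GINS3, GINS4, CHAF1A and UHRF1, and TYMS joined CCNE1 among the higher. MCM6, PCNA and RRM2, with differences near 0 on the deposited scale, were at 0.07 to 0.10 after cyclic loess, and none of these 3 passed the test. The plot of both scalings shows this as a shift of nearly all points by about the same amount.

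**Figure D2:**
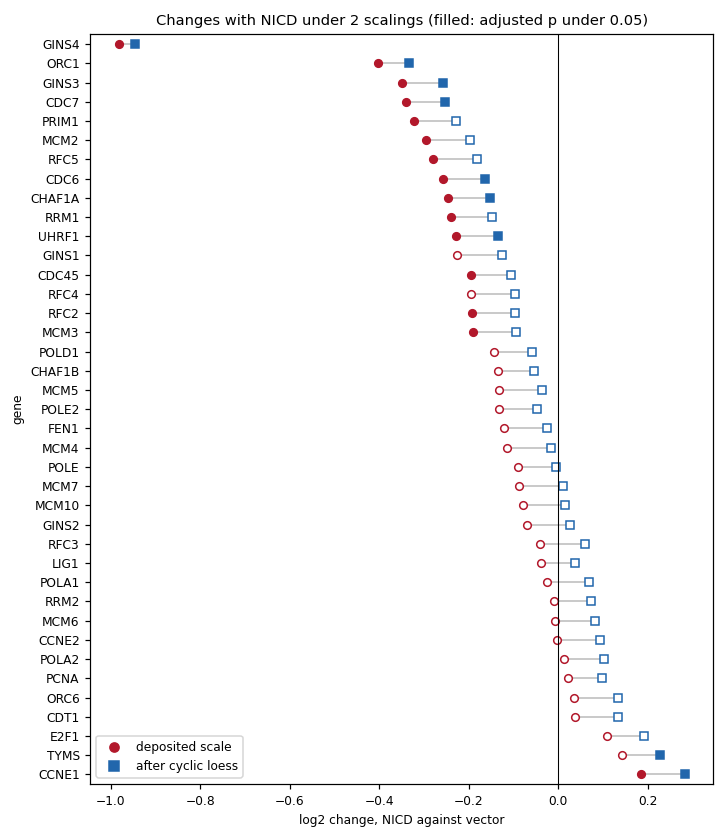
NICD minus vector difference (log2, x axis) of each of the 39 replication genes (y axis, sorted), with a circle for the deposited scale, a square for cyclic loess and a line between them, filled where the adjusted p is under 0.05. The squares lie to the right of the circles, 7 squares below 0 are filled, and above 0 CCNE1 is filled on both scales and TYMS only after cyclic loess.

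The promoters of 4 of these genes are shown because they set 2 genes whose falls kept their call in all alternative settings beside 2 that did not pass the test. The 2 that kept it have only 1 probe set each, so settings that change the probe set used the same signals for them. They are the 250 bases before the RefSeq start of each gene (GRCh38.p14), 5' to 3' on the gene's own strand. Capitals mark any E2F-type motif, here TTTGGCGC, TTTCCCGC, TTTGCCGC or TTTCGCGC on either strand, so that a match on the opposite strand appears as its reverse complement. ORC1 (chr1:52404424-52404673, minus strand) and UHRF1 (chr19:4909251-4909500, plus strand) fell with NICD on the deposited scale and in all 14 alternative settings, and MCM6 (chr2:135876444-135876693, minus strand) and E2F1 (chr20:33686386-33686635, minus strand) did not pass the test.
ORC1: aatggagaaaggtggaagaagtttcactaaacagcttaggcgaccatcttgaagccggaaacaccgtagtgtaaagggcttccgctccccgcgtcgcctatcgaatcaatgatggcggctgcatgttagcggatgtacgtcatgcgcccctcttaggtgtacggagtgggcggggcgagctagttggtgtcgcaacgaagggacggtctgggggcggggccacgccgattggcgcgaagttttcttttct
UHRF1: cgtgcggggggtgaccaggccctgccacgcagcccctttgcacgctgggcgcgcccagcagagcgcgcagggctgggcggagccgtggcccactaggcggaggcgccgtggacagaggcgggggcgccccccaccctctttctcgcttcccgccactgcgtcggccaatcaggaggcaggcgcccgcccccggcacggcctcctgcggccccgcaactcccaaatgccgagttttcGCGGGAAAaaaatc
MCM6: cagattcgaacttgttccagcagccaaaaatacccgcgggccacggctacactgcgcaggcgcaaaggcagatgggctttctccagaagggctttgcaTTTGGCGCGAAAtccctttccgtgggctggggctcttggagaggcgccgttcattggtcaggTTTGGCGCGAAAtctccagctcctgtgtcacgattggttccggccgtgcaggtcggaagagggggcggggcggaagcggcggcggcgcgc
E2F1: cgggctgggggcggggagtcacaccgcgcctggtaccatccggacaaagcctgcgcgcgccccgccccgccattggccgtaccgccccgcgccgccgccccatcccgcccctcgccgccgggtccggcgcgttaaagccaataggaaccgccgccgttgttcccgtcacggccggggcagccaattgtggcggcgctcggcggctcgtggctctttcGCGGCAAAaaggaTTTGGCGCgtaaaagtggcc
ORC1 held none of the 4 motifs in this window, and UHRF1 held 1, TTTCCCGC on the opposite strand, 14 to 7 bases before the start. MCM6 held 4 matches in 2 places, each a TTTGGCGC that overlaps a TTTCGCGC on the opposite strand. E2F1 held TTTGCCGC on the opposite strand and TTTGGCGC on its own strand, both within 33 bases of the start. Of the 35 replication genes with a promoter in the table, 14 (40%) held at least 1 of the motifs, against 979 of the 35116 promoters in it (2.79%). The 35116 are all entries of that table and were not limited to the genes measured here, while each replication gene gave 1 entry. Among the 13 of these 35 that fell with NICD, 2 held a motif (UHRF1 and MCM3), against 12 of the 21 that did not pass the test, and CCNE1 held none. A match is a string of letters and not a shown binding site, and a window without one says only that these letters are not in it. Strings that differ in 1 base were not counted. ATTGGCGC in ORC1 is one of these, and TTTGGCGG is another. TTTGGCGG is in the windows of CDC6 and CDC45, which fell, and of CDT1 and POLA2, which did not pass the test. The split between the 13 and the 21 therefore depends on the strings chosen, and whether it differs from none was not tested.

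Among the 6 subunits of the MCM helicase, which unwinds the DNA ahead of the fork, MCM2 and MCM3 fell with NICD and MCM4, MCM5, MCM6 and MCM7 did not pass the test. MCM2 had log2 signals of 9.76, 9.77 and 9.88 with NICD, 9.89, 9.91 and 9.83 with Notch1 L1601P+ΔP, 10.13, 10.03 and 9.999 with full-length Notch1, and 10.14, 10.002 and 10.15 with vector. All 3 NICD arrays and all 3 Notch1 L1601P+ΔP arrays lay below the other 6. MCM2 fell by 0.30 ± 0.06 (adjusted p = 0.0029) with NICD against vector, to 81.5% of the vector signal, and the call was lost after cyclic loess (-0.20, adjusted p = 0.0553). MCM3 had 10.12, 10.16 and 9.93 with NICD, 10.14, 10.14 and 10.17 with Notch1 L1601P+ΔP, 10.30, 10.27 and 10.26 with full-length Notch1, and 10.27, 10.20 and 10.31 with vector. Its NICD arrays lay below the vector arrays, and replicate 3 was the lowest. MCM3 fell by 0.19 ± 0.06 (adjusted p = 0.0366) with NICD, a call that ended without vector replicate 1, vector replicate 3 or NICD replicate 3, with an adjusted p of up to 0.123. MCM5 had 8.81, 8.88 and 8.84 with NICD, 8.89, 8.80 and 8.85 with Notch1 L1601P+ΔP, 8.93, 8.96 and 9.03 with full-length Notch1, and 9.01, 8.90 and 9.02 with vector. Its NICD and vector arrays did not overlap, yet the difference of -0.13 did not pass the test (adjusted p = 0.0949), and it passed without dim genes (adjusted p = 0.0462). MCM4 had 9.22, 9.25 and 9.05 with NICD, 9.22, 9.11 and 9.23 with Notch1 L1601P+ΔP, 9.35, 9.34 and 9.28 with full-length Notch1, and 9.32, 9.24 and 9.29 with vector, and its NICD and vector arrays overlapped. It differed by -0.12, but it was called lower with the mean of its probe sets and with the second brightest, at -0.31 (adjusted p = 0.00152). MCM7 had 9.89, 9.94 and 9.66 with NICD, 9.81, 9.80 and 9.68 with Notch1 L1601P+ΔP, 9.92, 9.89 and 9.92 with full-length Notch1, and 9.95, 9.83 and 9.99 with vector. NICD replicate 3 was the lowest of its 12 arrays, and the NICD and vector arrays overlapped. MCM6 had 11.12, 11.15 and 11.01 with NICD, 11.03, 11.04 and 11.09 with Notch1 L1601P+ΔP, 11.16, 11.11 and 11.07 with full-length Notch1, and 11.09, 11.10 and 11.11 with vector. Its groups lay within one another, and the NICD minus vector difference was -0.01 (95% interval -0.12 to 0.11), an interval that excludes a fall as large as that of MCM2. Whether the changes of MCM2 and MCM6 differ was not tested.

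Of the 4 genes of origin licensing, ORC1 and CDC6 fell with NICD. ORC1 encodes the largest subunit of the origin recognition complex, which marks origins, and had log2 signals of 6.98, 7.10 and 6.89 with NICD, 7.27, 7.19 and 7.36 with Notch1 L1601P+ΔP, 7.47, 7.44 and 7.43 with full-length Notch1, and 7.48, 7.35 and 7.35 with vector. The 3 NICD arrays were the lowest 3 of the 12, and the Notch1 L1601P+ΔP arrays overlapped with the vector arrays. ORC1 fell by 0.40 ± 0.07 (adjusted p = 0.000533) with NICD against vector, to 75.6% of the vector signal. CDC6, the ATPase that joins the complex to load the helicase, had 8.23, 8.31 and 8.35 with NICD, 8.55, 8.43 and 8.46 with Notch1 L1601P+ΔP, 8.62, 8.57 and 8.56 with full-length Notch1, and 8.58, 8.53 and 8.55 with vector. Again the 3 NICD arrays were the lowest 3. CDC6 fell by 0.26 ± 0.05 (adjusted p = 0.0027). Its partner in loading, CDT1, differed by 0.04 (95% interval -0.15 to 0.22) and ORC6, a small subunit of the origin recognition complex, by 0.03 (95% interval -0.08 to 0.15), and neither passed the test. The calls of ORC1 and CDC6 held in all 14 alternative settings. ORC1 has only 1 probe set, so settings that change the probe set used the same signals for it.

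**Figure D3:**
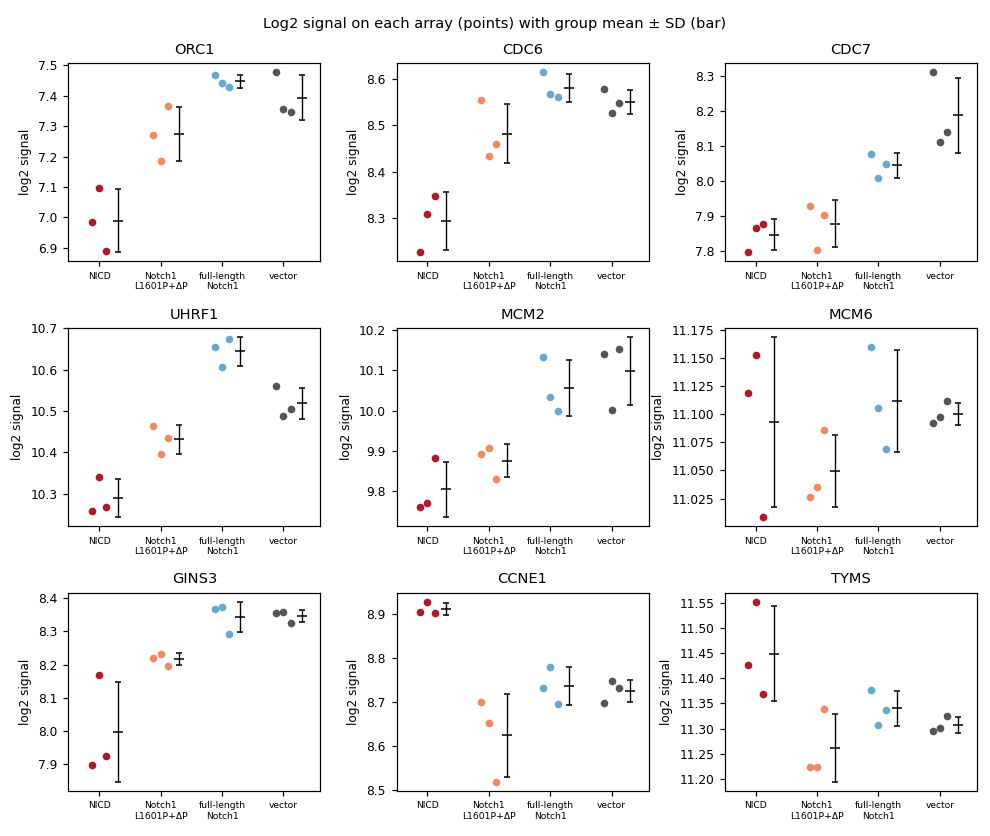
Log2 signal of 9 replication genes on each of the 12 arrays, with the groups in the order NICD, Notch1 L1601P+ΔP, full-length Notch1 and vector along the x axis and a bar beside the points for the group mean ± SD. ORC1, CDC6 and UHRF1 are lowest with NICD, CDC7 and MCM2 are low with both NICD and Notch1 L1601P+ΔP, MCM6 is level, and CCNE1 and TYMS are highest with NICD.

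Of the 7 genes that switch the helicase on, CDC7, CDC45, GINS3 and GINS4 fell with NICD. CDC7 is the kinase that phosphorylates the loaded MCM ring, and had 7.80, 7.87 and 7.88 with NICD, 7.93, 7.80 and 7.90 with Notch1 L1601P+ΔP, 8.08, 8.01 and 8.05 with full-length Notch1, and 8.31, 8.11 and 8.14 with vector. Its 3 NICD and 3 Notch1 L1601P+ΔP arrays lay below the vector arrays without overlap, as did its full-length Notch1 arrays. CDC7 fell by 0.34 ± 0.06 (adjusted p = 0.00114) with NICD, a call kept in all 14 alternative settings. Its only probe set was used in all of them. GINS3, a subunit of the GINS complex that rides with the helicase, had 7.90, 8.17 and 7.93 with NICD, 8.22, 8.23 and 8.20 with Notch1 L1601P+ΔP, 8.37, 8.37 and 8.29 with full-length Notch1, and 8.36, 8.36 and 8.33 with vector. The NICD arrays were the lowest 3 of the 12. GINS3 fell by 0.35 ± 0.07 (adjusted p = 0.00167), but its second probe set differed by -0.08 and did not pass the test. GINS4, another GINS subunit, had 5.78, 6.27 and 5.62 with NICD, 6.31, 6.004 and 6.10 with Notch1 L1601P+ΔP, 6.46, 7.13 and 6.06 with full-length Notch1, and 6.28, 6.99 and 7.36 with vector. Its vector and full-length Notch1 arrays were spread far more widely than those of any other replication gene named here, with SDs of 0.55 and 0.54. GINS4 fell by 0.98 ± 0.29 (adjusted p = 0.022) with NICD. The call ended without vector replicate 2, vector replicate 3, NICD replicate 1 or NICD replicate 3 (adjusted p of up to 0.0998), and its second brightest probe set differed by 0.03. CDC45, which completes the active helicase, fell by 0.20 ± 0.07 (adjusted p = 0.0439). That call ended when any one of 5 of the 6 arrays was left out, all but NICD replicate 2, with an adjusted p of up to 0.169. MCM10, which helps the helicase to start, GINS1 and GINS2 differed by -0.08, -0.23 and -0.07, and none passed the test, while GINS1 passed without NICD replicate 2 (-0.37, adjusted p = 0.016).

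Of the sliding clamp and 4 subunits of its loader, RFC2 and RFC5 fell with NICD. PCNA, the ring that holds polymerases on DNA, had 12.36, 12.31 and 12.23 with NICD, 12.22, 12.16 and 12.29 with Notch1 L1601P+ΔP, 12.44, 12.32 and 12.42 with full-length Notch1, and 12.31, 12.35 and 12.17 with vector. NICD and vector arrays overlapped, and the difference was 0.02 (95% interval -0.12 to 0.16). RFC5, a subunit of the loader that opens the ring, had 8.84, 8.76 and 8.73 with NICD, 8.81, 8.75 and 8.93 with Notch1 L1601P+ΔP, 9.02, 9.11 and 8.97 with full-length Notch1, and 8.98, 9.09 and 9.10 with vector. Its NICD arrays and its Notch1 L1601P+ΔP arrays all lay below the vector arrays. RFC5 fell by 0.28 ± 0.06 (adjusted p = 0.00545) with NICD, and its second brightest probe set differed by -0.65. RFC2, another loader subunit, had 8.73, 8.82 and 8.62 with NICD, 8.83, 8.75 and 8.89 with Notch1 L1601P+ΔP, 9.06, 8.98 and 8.95 with full-length Notch1, and 8.95, 8.88 and 8.92 with vector. Its NICD arrays lay below the vector arrays by a narrow margin. RFC2 fell by 0.19 ± 0.06 (adjusted p = 0.0375), a call that ended when any one of 5 of the 6 arrays was left out, all but NICD replicate 2, with an adjusted p of up to 0.136. RFC3 and RFC4, also loader subunits, differed by -0.04 and -0.20 and did not pass the test (adjusted p = 0.681 for RFC3 and 0.0782 for RFC4), though RFC4 passed without dim genes and with trend and robust moderation (adjusted p = 0.0174 for the second).

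Among the polymerases only PRIM1, the catalytic primase subunit that lays down the starting RNA, passed the test with NICD. PRIM1 had 8.37, 8.53 and 8.11 with NICD, 8.56, 8.51 and 8.68 with Notch1 L1601P+ΔP, 8.59, 8.59 and 8.55 with full-length Notch1, and 8.67, 8.74 and 8.57 with vector. NICD replicate 3 was the lowest array, and the NICD arrays lay below the vector arrays. PRIM1 fell by 0.32 ± 0.09 (adjusted p = 0.0197), and the call ended without vector replicate 1, vector replicate 2 or NICD replicate 3 (adjusted p of up to 0.074). The other 5 genes differed by -0.14 for POLD1 (lagging-strand polymerase delta), -0.13 for POLE2 and -0.09 for POLE (leading-strand polymerase epsilon), -0.02 for POLA1 and 0.01 for POLA2 (polymerase alpha, which extends the primer), and none passed. FEN1, which trims the flaps of lagging-strand fragments, differed by -0.12 and LIG1, the ligase that joins them, by -0.04, with no call, while FEN1 passed without NICD replicate 2 (adjusted p = 0.049).

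Genes that rebuild chromatin behind the fork fell with NICD in 2 of 3 cases. UHRF1 recruits the maintenance methyltransferase to hemimethylated DNA, and had 10.26, 10.34 and 10.27 with NICD, 10.46, 10.40 and 10.43 with Notch1 L1601P+ΔP, 10.65, 10.61 and 10.67 with full-length Notch1, and 10.56, 10.49 and 10.50 with vector. The 3 NICD arrays were the lowest of the 12, the Notch1 L1601P+ΔP arrays came next, and the full-length Notch1 arrays were the highest. UHRF1 fell by 0.23 ± 0.05 (adjusted p = 0.00352) with NICD, and the call held in all 14 alternative settings. Its only probe set was used in all of them. CHAF1A, the large subunit of the histone chaperone CAF-1, had 8.28, 8.26 and 8.19 with NICD, 8.32, 8.35 and 8.39 with Notch1 L1601P+ΔP, 8.56, 8.54 and 8.50 with full-length Notch1, and 8.47, 8.45 and 8.55 with vector. The NICD arrays were again the lowest 3. CHAF1A fell by 0.25 ± 0.05 (adjusted p = 0.00266), though its second brightest probe set did not pass the test (adjusted p = 0.123). CHAF1B, the middle subunit, differed by -0.13 (adjusted p = 0.113).

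Of the 3 genes of deoxynucleotide synthesis, RRM1 fell with NICD. RRM1, the large subunit of ribonucleotide reductase, had 10.61, 10.59 and 10.52 with NICD, 10.72, 10.64 and 10.75 with Notch1 L1601P+ΔP, 10.78, 10.78 and 10.72 with full-length Notch1, and 10.82, 10.76 and 10.85 with vector. Its NICD arrays were the lowest 3. RRM1 fell by 0.24 ± 0.05 (adjusted p = 0.00403) with NICD, and after cyclic loess the adjusted p was 0.0502. The small subunit RRM2, whose level is known to rise and fall with S phase, differed by -0.01 (95% interval -0.11 to 0.09). TYMS makes thymidylate, and had 11.43, 11.55 and 11.37 with NICD, 11.22, 11.22 and 11.34 with Notch1 L1601P+ΔP, 11.38, 11.31 and 11.34 with full-length Notch1, and 11.29, 11.30 and 11.33 with vector. The NICD arrays lay above the vector arrays without overlap. With NICD against vector TYMS differed by 0.14 ± 0.06, adjusted p = 0.0953, which did not pass the test on the deposited scale and passed it after cyclic loess (0.23, adjusted p = 0.00393).

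Of the 3 regulators of S-phase entry, CCNE1 rose with NICD. CCNE1 had 8.90, 8.93 and 8.90 with NICD, 8.70, 8.65 and 8.52 with Notch1 L1601P+ΔP, 8.73, 8.78 and 8.70 with full-length Notch1, and 8.70, 8.75 and 8.73 with vector. The 3 NICD arrays were the highest 3 of the 12. CCNE1 rose by 0.19 ± 0.06 (adjusted p = 0.0234) with NICD against vector. The call was lost without vector replicate 1, vector replicate 3, NICD replicate 1 or NICD replicate 2, and with the second brightest probe set (adjusted p of up to 0.0774). CCNE2, the other cyclin E gene, had 8.95, 8.93 and 8.91 with NICD, 8.67, 8.73 and 8.83 with Notch1 L1601P+ΔP, 9.03, 8.99 and 8.89 with full-length Notch1, and 8.98, 9.01 and 8.81 with vector. Its NICD and vector arrays overlapped, and the NICD minus vector difference was -0.00 (95% interval -0.15 to 0.14). Its second brightest probe set was called lower with NICD, at -0.19 (adjusted p = 0.0274), and the sign of the difference changed in 4 of 14 alternatives. E2F1, the transcription factor that drives many of these genes, had 7.89, 7.76 and 7.98 with NICD, 7.87, 7.80 and 7.85 with Notch1 L1601P+ΔP, 7.52, 7.79 and 7.55 with full-length Notch1, and 7.72, 7.79 and 7.79 with vector. Its full-length Notch1 arrays had the widest spread, and its NICD and vector arrays overlapped. With NICD against vector E2F1 differed by 0.11 ± 0.08, adjusted p = 0.347, and it was called higher with the mean of its probe sets and with the second brightest (0.19, adjusted p = 0.0295).

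With Notch1 L1601P+ΔP, 1 of the 39 genes passed the test against vector, CDC7, which fell by 0.31 ± 0.06 (adjusted p = 0.0128). That is near the 2.95% of all genes that were lower, and no gene rose, against 2.16% higher and 5.12% called in either direction. The call ended without Notch1 L1601P+ΔP replicate 2 (adjusted p = 0.0633). More of the genes leaned downwards than passed. Of the 39 differences 36 were negative, with a median of -0.10 against -0.01 over all genes. At an unadjusted p under 0.05, 11 of the 39 were lower and none higher, against 2466 lower and 1666 higher of all 19775 genes. After cyclic loess 32 differences were negative, with a median of -0.04 against 0.01 over all genes. The Notch1 L1601P+ΔP arrays lay wholly below the vector arrays for 18 genes, against 17.6% of all genes, and wholly above for 1 gene, against 10.9%. All 6 MCM genes were among those 18. RFC5 and MCM2 came closest to the threshold, at -0.23 ± 0.06, adjusted p = 0.0655 for RFC5, and -0.22 ± 0.06, adjusted p = 0.0583 for MCM2. CCNE2 did not pass, but was called lower with the mean of its probe sets (adjusted p = 0.0219) and with the second brightest. ORC1, which fell with NICD, differed by -0.12 here (adjusted p = 0.331). Both comparisons use the same 3 vector arrays, so a low or high vector array shifts both.

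Full-length Notch1 gave no call among the 39 genes by limma, where 0.0354% of all genes were called in either direction, 0.0303% higher and 0.00506% lower. Before adjustment, at p under 0.05, 1 gene was higher (UHRF1) and 1 was lower (CDC7), against 444 higher and 609 lower of all 19775 genes. The differences were negative for 21 genes and positive for 18, with a median of -0.00. Arrays of the 2 groups did not overlap for 2 lower genes, CDC7 and LIG1, and 1 higher gene, UHRF1, against 6.42% and 4.59% of all genes. UHRF1 differed by 0.13 (95% interval 0.02 to 0.23) and CDC7 by -0.14 (95% interval -0.28 to -0.01). ORC1 differed by 0.05 (95% interval -0.09 to 0.20), an interval that excludes a fall as large as that with NICD. The plot of differences shows the 3 comparisons side by side.

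**Figure D4:**
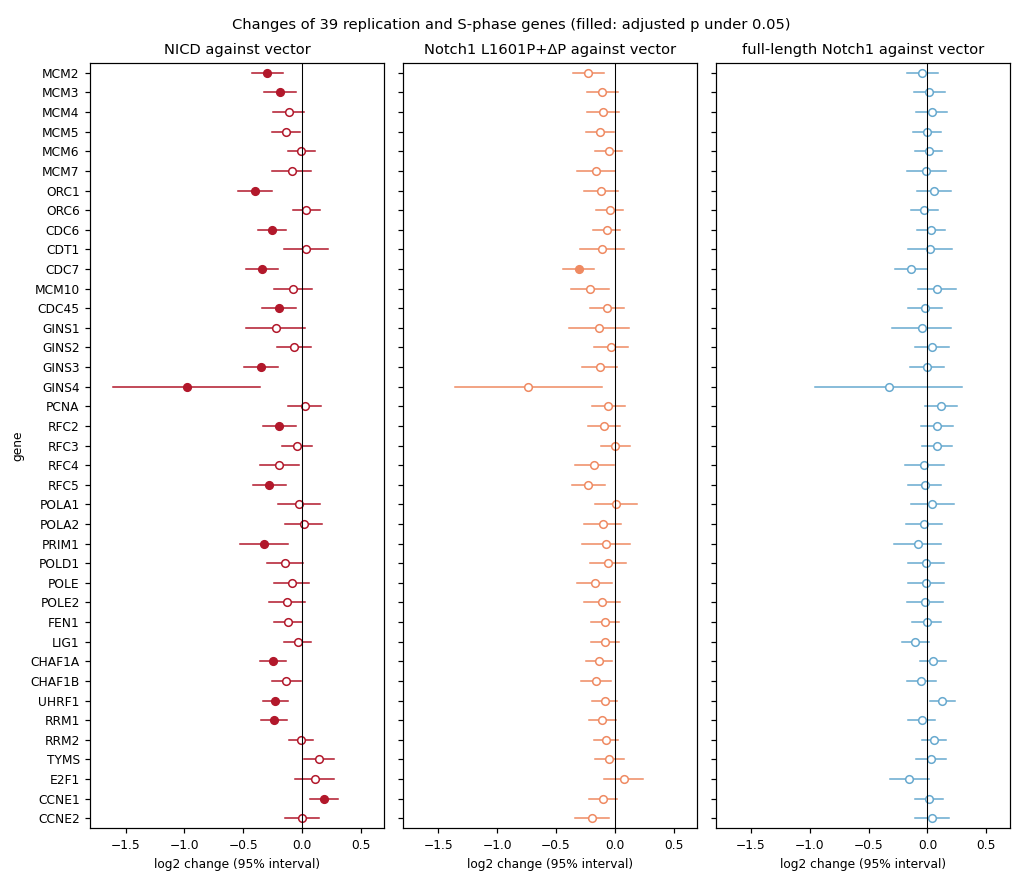
Difference from vector (log2) of each of the 39 replication genes, in 3 panels for NICD, Notch1 L1601P+ΔP and full-length Notch1, with 95% intervals from the limma fit and filled points for called genes. In the NICD panel 14 genes lie below 0 and CCNE1 above 0 as calls, in the Notch1 L1601P+ΔP panel CDC7 is the 1 call, and in the full-length panel no gene is called.

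Set directly against each other, NICD and Notch1 L1601P+ΔP differed in 5 of the 39 genes, against 19.8% of all genes. ORC1 was lower with NICD by 0.28 ± 0.07 (adjusted p = 0.00908), CDC6 by 0.19 ± 0.05 (adjusted p = 0.0249) and GINS3 by 0.22 ± 0.07 (adjusted p = 0.0372), which is 3 of 39 against 11.1% of all genes. CCNE1 was higher with NICD by 0.29 ± 0.06 (adjusted p = 0.00243) and TYMS by 0.19 ± 0.06 (adjusted p = 0.0401), 2 of 39 against 8.73% of all genes. The arrays of the groups did not overlap for 6 lower genes, against 20.4% of all genes, and for 5 higher genes, against 13.8%. The counts of calls do not exceed the background in either direction, and the median difference of -0.03 equalled that over all genes. ORC1, with only 1 probe set, kept its call in all 14 alternative settings. GINS3 lost it in 9, TYMS in 8, CDC6 in 6, and CCNE1 in 1, the second brightest probe set. Leaving out any one of 5 arrays (all but NICD replicate 2) ended the call of GINS3, with an adjusted p of up to 0.139. Leaving out Notch1 L1601P+ΔP replicate 1 or NICD replicate 1 ended that of CDC6, with an adjusted p of up to 0.114. Leaving out Notch1 L1601P+ΔP replicate 1 or 2, or NICD replicate 1 or 2, ended that of TYMS, with an adjusted p of up to 0.133. The MCM genes, all negative against vector in both groups, gave NICD minus Notch1 L1601P+ΔP differences of -0.08 to 0.07, and none passed the test.

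Against full-length Notch1, NICD gave 11 lower genes (28.2%, against 17% of all genes) and 2 higher (5.13%, against 10.1%), where 27% of all genes were called in either direction. Arrays did not overlap for 19 lower genes, against 24.2% of all genes, and for 2 higher genes, against 15.3%. The 11 also fell against vector, in a comparison that shares the 3 NICD arrays. UHRF1 was lower by 0.35 ± 0.05 (adjusted p = 0.000129), ORC1 by 0.46 ± 0.07 (adjusted p = 0.000204) and GINS3 by 0.35 ± 0.07 (adjusted p = 0.00177). The other 8 were MCM2, MCM3, CDC6, CDC7, RFC2, RFC5, CHAF1A and RRM1, with differences of -0.29 to -0.19. Of these 8, CDC7 lost its call in 5 of 6 cases without 1 array, all but NICD replicate 3 (adjusted p of up to 0.112). MCM3 lost it in 4, without any one full-length Notch1 array or NICD replicate 3 (up to 0.0821), and RRM1 in 3, without full-length Notch1 replicate 1 or 2 or NICD replicate 3 (up to 0.0598). After cyclic loess 6 replication genes were lower and 4 higher in this comparison, against 2347 lower and 2634 higher of all 19775 genes. CCNE1 was higher with NICD by 0.17 ± 0.06 (adjusted p = 0.0326) and E2F1 by 0.26 ± 0.08 (adjusted p = 0.0219). The E2F1 groups were separated by their means only, since full-length Notch1 replicate 2, at 7.79, lay above NICD replicate 2, at 7.76. Without 1 array the E2F1 call ended in 4 of 6 cases (full-length Notch1 replicate 1 or 3, NICD replicate 1 or 3), with an adjusted p of up to 0.0909, and that of CCNE1 in 5 of 6, all but full-length Notch1 replicate 2, with up to 0.116. Notch1 L1601P+ΔP against full-length Notch1 gave 1 lower gene, UHRF1, by 0.21 ± 0.05 (adjusted p = 0.0334), against 1.86% of all genes lower and 3.72% called in either direction, and no higher gene. That call ended when any one of the 6 arrays was left out, with an adjusted p of up to 0.137. In this comparison 36 of 39 differences were negative, with a median of -0.12 against -0.01. At an unadjusted p under 0.05, 14 were lower and 1 higher, against 2061 lower and 1728 higher of all 19775 genes. After cyclic loess 31 differences were negative, with a median of -0.06 against 0.01. Arrays did not overlap for 20 lower genes, against 16.2% of all genes, and for 1 higher gene, against 11%.

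Over all 6 comparisons 17 of the 39 genes were called at least once and 22 never were. The same count over all genes was not made, and NICD against vector alone called 27.6% of them. Of the 39, 22 had more than 1 probe set. All probe sets of a gene gave a difference from vector of the same sign in 18 of these 22 genes for NICD, in 16 for Notch1 L1601P+ΔP and in 8 for full-length Notch1.

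Genes that work as partners could be set side by side within each array, in 8 pairs chosen after their values were seen, so these are descriptions with no test. The change of ORC1 minus that of ORC6, each relative to its vector mean, was -0.41, -0.33 and -0.58 on the NICD arrays, against 0.06, -0.07 and 0.01 on the vector arrays. For RRM1 minus RRM2, the subunits of 1 enzyme, it was -0.16, -0.23 and -0.30 with NICD, against 0.04, -0.04 and -0.00 with vector. In both pairs all 3 NICD arrays lay below all 3 vector arrays. For MCM2 minus MCM6 it was -0.36, -0.38 and -0.12 with NICD, against 0.05, -0.09 and 0.04 with vector. For GINS3 minus GINS2 it was -0.34, -0.23 and -0.27 with NICD, against 0.01, -0.04 and 0.02 with vector. For RFC5 minus RFC3 it was -0.23, -0.27 and -0.22 with NICD, against -0.11, 0.01 and 0.10 with vector. The NICD arrays lay below the vector arrays in these 3 pairs too. For CCNE1 minus CCNE2 it was 0.16, 0.20 and 0.20 with NICD, against -0.08, -0.05 and 0.13 with vector, and the NICD arrays lay above. In the other two pairs the arrays overlapped. CDC6 minus CDT1 was -0.48, -0.34 and -0.07 with NICD, against 0.10, -0.12 and 0.02 with vector. PRIM1 minus POLA2 was -0.25, -0.04 and -0.73 with NICD, against 0.03, 0.04 and -0.07 with vector.

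Other replication factors fell in part with NICD, and 1 rose. Of 29 other replication factors 11 fell (37.9%) and 1 rose (3.45%) against vector, where 18.1% of all genes were lower and 9.54% higher. After cyclic loess 7 fell and 1 rose, where 12.7% of all genes were lower and 13.5% higher, and these 4 shares are also the background of the lists that follow. The gene that rose was GMNN, which encodes geminin, the protein that binds CDT1 and blocks a second round of licensing. GMNN had 12.54, 12.54 and 12.47 with NICD, 11.22, 11.28 and 11.27 with Notch1 L1601P+ΔP, 11.09, 10.98 and 11.05 with full-length Notch1, and 10.98, 11.04 and 10.86 with vector. The NICD arrays stood more than 1 log2 unit above all other arrays, and the Notch1 L1601P+ΔP arrays lay above both the full-length Notch1 and the vector arrays. GMNN rose by 1.55 (adjusted p = 5.05e-10) with NICD and by 0.29 (adjusted p = 0.0105) with Notch1 L1601P+ΔP, and its only probe set kept both calls in all 14 alternative settings. The largest falls with NICD in that list were those of POLD2 (polymerase delta, -0.34), ORC4 (-0.32) and ORC5 (-0.28), both subunits of the origin recognition complex. With Notch1 L1601P+ΔP, MCM8 fell by 0.27 (adjusted p = 0.0357), a call lost in 9 of 14 alternatives, among them leaving out vector replicate 1 or 3 or Notch1 L1601P+ΔP replicate 1 or 2.

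Of 9 other genes of nucleotide supply measured, 4 fell and 1 rose with NICD (2 and 2 after cyclic loess), led by SAMHD1 (-0.46), which breaks down deoxynucleotides, and DCTPP1 (-0.28). The gene that rose was DUT, which removes dUTP (0.19). Its call was lost in 4 of 14 alternatives, among them leaving out vector replicate 1 or NICD replicate 1 (highest adjusted p over all alternatives 0.147). SAMHD1 also fell with Notch1 L1601P+ΔP (-0.25, adjusted p = 0.0122). That call was lost in 3 of 14 alternatives, which were cyclic loess, the second brightest probe set and leaving out vector replicate 1 (adjusted p of up to 0.128). Of 18 other S-phase and DNA repair genes 8 fell and none rose with NICD (4 and 0 after cyclic loess), with FANCI (-0.43), EXO1 (-0.31) and UNG (-0.27) the furthest down. Of 30 mitosis genes 3 fell and 1 rose, against 18.1% and 9.54% of all genes, while after cyclic loess 1 fell and 4 rose. PTTG1, which encodes securin, fell by 0.38 (adjusted p = 0.000378) and kept its call in all alternatives. TOP2A rose by 0.21 (adjusted p = 0.022), a call lost in 6 of 14 alternatives, among them leaving out vector replicate 2 or 3 or NICD replicate 2.

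Regulators upstream of S phase moved in both directions with NICD. Of 18 E2F and retinoblastoma regulators, which include kinases such as CDK6, 5 rose (27.8%, against 9.54% of all genes) and 7 fell (38.9%, against 18.1%). After cyclic loess 6 rose and 6 fell, where 13.5% of all genes were higher and 12.7% lower. E2F2, an activating family member, had 8.20, 8.22 and 8.27 with NICD, 7.73, 7.83 and 7.59 with Notch1 L1601P+ΔP, 7.49, 7.36 and 7.41 with full-length Notch1, and 7.58, 7.50 and 7.55 with vector. The NICD arrays were the highest 3. E2F2 rose by 0.69 (adjusted p = 3.77e-06), and E2F8, a repressing member, by 0.59 (adjusted p = 3.65e-05). CDK6, the cyclin D kinase, rose by 0.77 (adjusted p = 1.99e-05). E2F5, RBL1, which encodes the pocket protein p107, and E2F7, another repressing member, differed by -0.50, -0.48 and -0.45 and were called. The calls of E2F2, E2F5 and E2F7 were lost with the second brightest probe set (adjusted p = 0.705 for E2F2, 0.709 for E2F5 and 0.176 for E2F7). Of 10 G1 cyclins, kinase inhibitors and MYC, 4 rose and 3 fell (4 and 2 after cyclic loess). CDKN1C, the inhibitor p57, had 10.12, 10.25 and 9.98 with NICD, 9.93, 9.95 and 9.69 with Notch1 L1601P+ΔP, 9.20, 9.35 and 9.34 with full-length Notch1, and 9.08, 9.24 and 8.94 with vector. The NICD and Notch1 L1601P+ΔP arrays all lay above the other 6. CDKN1C rose by 1.03 (adjusted p = 3.92e-06) with NICD and by 0.77 (adjusted p = 0.000448) with Notch1 L1601P+ΔP. CCND1, which encodes cyclin D1, rose by 0.94 (adjusted p = 4.98e-07) with NICD and by 0.39 (adjusted p = 0.00694) with Notch1 L1601P+ΔP. The CCND1 call with Notch1 L1601P+ΔP was lost with the second brightest probe set (adjusted p = 0.0572). CDKN1A, the inhibitor p21, rose by 0.37 with NICD (adjusted p = 0.000429). CCND2 and MYC, a growth-promoting transcription factor, differed by -0.49 and -0.38 and were called lower in all alternatives, MYC on its only probe set. None of these context genes was called by limma with full-length Notch1. Before adjustment, the G1 list of 10 held 3 higher genes and no lower gene there at p under 0.05. Of all 19775 genes, 444 were higher and 609 lower at that threshold.

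**Figure D5:**
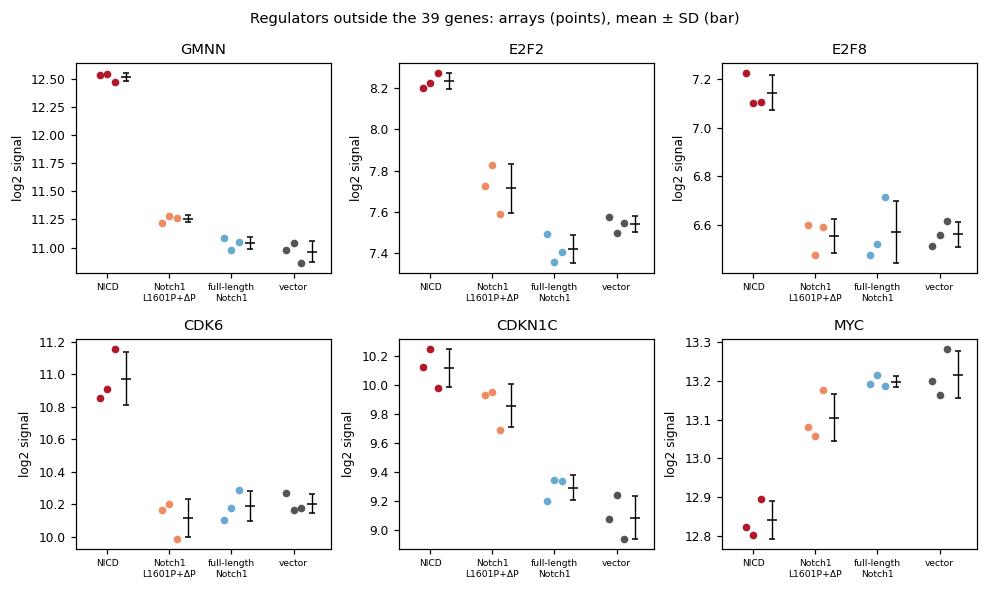
Log2 signal of 6 regulators of S phase on each of the 12 arrays, with the groups in the order NICD, Notch1 L1601P+ΔP, full-length Notch1 and vector on the x axis and a bar beside the points for the group mean ± SD. GMNN, E2F2, E2F8, CDK6 and CDKN1C are highest with NICD and MYC is lowest with NICD.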

How the data were processed

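RNA of 12 MCF-10A samples was measured on 1 Affymetrix array each, with 54675 probe sets. The deposited values are log2 signals that the authors made with RMA, which corrects background, sets the arrays to a common distribution by quantiles and summarises each probe set. Limma was also used, per the submitters' processing notes, and no version of either tool is stated there. A common distribution hides any shift shared by most genes. On arrays it is their number that limits the precision.

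Of the probe sets, 41091 carried 1 gene symbol in the platform annotation, 1801 carried several and were left out, and 41037 matched a RefSeq gene number. The probe set with the highest mean over the 12 arrays stood for each of 19775 genes. All 12 arrays entered 1 fit with a mean per group in limma 3.58.1 (R 4.3.3), with 8 residual degrees of freedom and 4.09 from the moderation. Tests were two-sided, and the threshold for a call was 0.05 after Benjamini-Hochberg adjustment across the genes of each comparison. Errors of differences are standard errors of the fit. The scripts were tested on simulated data. Alternatives were another scaling, filter, probe set rule, moderation or sample set, and leaving out each array.

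All 39 genes are named. Arrays are printed for up to 3 called genes of each role with the largest change and for the MCM subunits, PCNA, E2F1 and both cyclin E genes. In other lists up to 3 called genes per direction are named. The genes and lists were chosen with earlier results of these data known. Some genes of the other lists are not reported here. Promoters come from RefSeq (GRCh38.p14), and MCM4, MCM5, GINS4 and CCNE2 had no entry.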

Additional observations from a re-analysis of the deposited data

Results flagged for a closer look

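TYMS and CCNE1 were picked out because their differences from vector had opposite signs with NICD and with Notch1 L1601P+ΔP, and limma called the difference between these 2 groups. For CCNE1 the NICD minus Notch1 L1601P+ΔP difference was 0.287 on the log2 scale (adjusted p = 0.00243), with 0.19 for NICD and -0.10 for Notch1 L1601P+ΔP against vector. For TYMS it was 0.187 (adjusted p = 0.0401), with 0.14 for NICD and -0.05 for Notch1 L1601P+ΔP against vector. Both genes were higher on each of the 3 NICD arrays than on each of the 3 Notch1 L1601P+ΔP arrays. The call of TYMS was lost in 8 of 14 alternatives, with an adjusted p of up to 0.227, among them leaving out Notch1 L1601P+ΔP replicate 1 or 2 or NICD replicate 1 or 2. The call of CCNE1 was lost in 1, the second brightest probe set (adjusted p = 0.476). The negative differences of Notch1 L1601P+ΔP from vector did not pass the test in either gene.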

How the results depend on the processing

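Of 3276 values of the 39 genes under alternatives, 3077 kept their side of the threshold, 118 calls were lost, 80 were gained and 1 called difference turned its sign, that of GINS4 with NICD against vector with the second brightest probe set (0.0300). MCM8 with Notch1 L1601P+ΔP against vector also turned there (0.0175). Differences that were not called changed sign in 177 of these values. For NICD against vector 4 of the 15 calls (ORC1, CDC6, CDC7 and UHRF1) held in every alternative. ORC1, CDC7 and UHRF1 have only 1 probe set each. The mean of probe sets and the second brightest therefore used the same signals for them and were no check of the probe set. The count of 15 was 9 after cyclic loess and within 1.5 times of 15 otherwise. For Notch1 L1601P+ΔP against vector the count of 1 was 0 after cyclic loess (1.82% of all genes lower) and with only the groups compared (1.88%). It was 2 with equal array medians (3.47%), with the mean of probe sets (2.57%) and with the second brightest (1.55%). It was 3 without dim genes (7.74% of the genes kept) and with trend and robust moderation (5.44%). All of these calls were lower. For NICD against Notch1 L1601P+ΔP the count of 5, beside 3923 of all genes, was 3 with equal array medians (3660 of all genes). It was 2 with only the groups compared (2983), and 9 without dim genes (4294 of 12563) and with trend and robust moderation (4602). For Notch1 L1601P+ΔP against full-length Notch1 the count of 1 was 0 after cyclic loess (1.16% of all genes lower). It was also 0 with the replicate block (1.39%) and with only the groups compared (1.17%). It was 3 with the mean of probe sets (1.46%) and 8 with trend and robust moderation (4.04%). It was 4 with equal array medians (3.12%) and without dim genes (5.44% of the genes kept), and all of these calls were lower. Leaving out 1 array gave 0 to 2 calls for Notch1 L1601P+ΔP and 10 to 16 for NICD against vector. It gave 2 to 6 for NICD against Notch1 L1601P+ΔP. Against full-length Notch1 it gave 8 to 15 for NICD and 0 to 1 for Notch1 L1601P+ΔP. Over all genes NICD gave 4624 to 5513 calls against vector, 3010 to 3982 against Notch1 L1601P+ΔP and 4249 to 5429 against full-length Notch1.

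Over all genes, Notch1 L1601P+ΔP against vector gave 1012 calls, 586 with the second brightest probe set, 1616 with trend and robust moderation and 566 to 957 without 1 array. Against full-length Notch1 it gave 735, 432 and 1256 under the same settings, and 403 to 642 without 1 array. Full-length Notch1 against vector gave 7 calls, 19 with trend and robust moderation, 4 with the replicate block, 3 with only the groups compared and 4 to 5 without 1 array. Cyclic loess moved the share of higher genes among the called to 51.6% from 34.6% for NICD against vector, to 58.4% from 42.3% for Notch1 L1601P+ΔP against vector, to 52.9% from 37.3% for NICD and to 62.5% from 50.1% for Notch1 L1601P+ΔP against full-length Notch1. The causes were not tested.

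Samples were not paired by replicate number in the main fit, and the labels do not say whether same-numbered samples were handled together. Deviations from group means correlated at -0.11 to 0.16 between same-numbered arrays and at -0.11 to 0.14 between the others. With the replicate block NICD against vector gave 13 calls among the 39 genes and 5171 among all genes. Signals near the floor are compressed, and no array's scanner values were used here.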
